A study of Mus musculus with 6 samples.

Results

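Collagens are the main structural proteins of the extracellular matrix, and the genes examined here encode their chains and the enzymes that modify, fold, trim and crosslink them. The members were all gene symbols of the count table that name a collagen chain, a collagen prolyl 4-hydroxylase alpha subunit (P4ha), a lysyl hydroxylase (Plod) or a lysyl oxidase (Lox, Loxl), together with Serpinh1, Pcolce and Pcolce2. The rule found 58 of the 31017 symbols, 44 collagen chains and 14 processing genes. Of these, 29 had enough counts to be tested, 17 had between 1 and 62 counts over all libraries, and 12 had no count in any library.

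Poly(A) RNA was sequenced from 3 libraries labelled FGFR2 KO (replicates 1 to 3) and 3 control libraries (replicates 1 to 3). All were made from 4T1 cells, a mammary carcinoma line of BALB/c mouse origin that spreads readily when it is injected into mice. The KO cells had been nucleofected with Cas9 and guides against FGFR2, which encodes a receptor kinase of the fibroblast growth factor family, and the control cells with Cas9 and control guides. Every culture was a gel of collagen I, at either 1.2 or 2.4 mg per ml (the labels do not say which for each library), and every gel was dissolved with collagenase before RNA extraction. The labels give neither the exon that was cut nor whether the KO cells were a pool or a clone. The comparison shows how collagen transcripts of these cells inside a collagen matrix differ between the FGFR2 KO and the control.

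The libraries held 15531790 to 20447719 counts. Levels are given as CPM (library-size scaled counts, with TMM factors), and levels of different genes are compared only per kb of annotated exon. Fgfr2 itself stood at 101, 81.2 and 95.2 CPM in KO replicates 1 to 3 and 96.9, 95.9 and 106 CPM in control replicates 1 to 3. It did not pass the test (log2 fold change -0.11, SE 0.056, edgeR adjusted p = 0.113), and the count of the whole gene is no check of the labels here, since a frameshift need not lower a transcript. Epithelial markers were abundant in both groups and summed to 3505 to 3589 CPM in the KO and 4317 to 4426 CPM in the control libraries. Of these 7 genes 1 rose and 5 fell in the KO, where 27.1% of all tested genes rose and 27.5% fell. Of 11 fibroblast markers, Lum, Thy1, Dpt and Col3a1 had no count in any library, and the summed level, nearly all of it Pdgfra, was 41.5 to 47.1 CPM in the KO and 38.1 to 40.7 CPM in the control libraries. Within that list Dcn stood at 0.564 ± 0.0461 CPM in the KO and 0.0363 ± 0.0629 CPM in the control libraries (SD, n = 3 each). Pdgfrb had 26 counts over the KO and 2 over the control libraries. Fap had 6 counts over each group, and Fbln1 had 100 over the KO and 102 over the control libraries. Of the 3 tested genes of the list 1 rose and 0 fell, where 27.1% of all tested genes rose and 27.5% fell. The gene that rose was Col1a1, with 72 counts over the KO and 24 over the control libraries. Col1a1, Col1a2 and Col3a1 are also members examined here. The fibroblast markers thus did not move together. Endothelial markers, with Kdr and Emcn at 0, summed to 0.593 to 0.963 CPM in the KO and 0.542 to 0.981 CPM in the control libraries, and pericyte and smooth muscle markers to 15.9 to 17.5 CPM in the KO and 11.5 to 15.3 CPM in the control libraries. Most of this sum was Notch3, at 14.0 ± 1.63 CPM in the KO and 12.8 ± 1.74 CPM in the control libraries (SD, n = 3 each). In the same list Acta2 had 51 counts over the KO and 0 over the control libraries, and Cspg4 had 102 over the KO and 3 over the control libraries. Rgs5 had 9 counts over the KO and 11 over the control libraries, and Des had 0 over the KO and 1 over the control libraries. Of the leukocyte markers, Cd3e and Adgre1 had no count and Ptprc had 3 in all. The leukocyte list summed to 5.99 to 8.49 CPM in the KO and 13.9 to 15.9 CPM in the control libraries, most of it Cd68. The part of these marker differences in the collagen results was not tested. In a bulk sample, fewer cells of a type and less RNA per cell cannot be told apart.

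A collagen molecule is built from 3 polypeptide chains that wind around each other. Fibrillar collagens such as types I, II, III, V and XI form the cables of connective tissue. Type IV forms the sheet of basement membranes. Type VI forms beaded filaments close to the cell surface, type VII anchors epithelium to the tissue below, and type VIII belongs to the short-chain, network-forming collagens. Collagens called FACIT sit on the surface of fibrils, and type XVIII is a basement membrane proteoglycan whose end fragment is endostatin. In the endoplasmic reticulum, prolyl and lysyl hydroxylases modify the new chains and the chaperone HSP47 (Serpinh1) holds them in shape. Outside the cell, proteinases trim the molecule with the help of enhancer proteins (Pcolce) and lysyl oxidases start the crosslinks.

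The collagen transcripts of these cells were mainly those of basement membrane and pericellular collagens, and the KO libraries differed from the control libraries in the make-up of the pool while its total level per kb was close. Type VI chains were higher in KO libraries, the type VIII chain Col8a1 was lower, and the major type IV chains Col4a1 and Col4a2 did not pass the test. Of the 29 tested members 20 changed, where 54.6% of all tested genes did (edgeR quasi-likelihood test, adjusted p below 0.05). Of these members 11 rose and 9 fell, where 27.1% of all tested genes rose and 27.5% fell. Changes of at least 2-fold were found for 10 tested members, 7 up and 3 down, where 6.75% of all tested genes changed that much, 2.88% up and 3.87% down. The median log2 fold change of the tested members was 0.03, against -0.01 over all 12158 tested genes, and the median size without regard to sign was 0.53, against 0.21. The groups did not overlap for 22 tested members, where this held for 59.5% of all tested genes. A further limit is that 3 of the 29 (Col1a1, Col8a2 and Col27a1) reached the filter's level of 0.524 CPM in all KO libraries but not in all control libraries. Among the 26 others, 8 rose and 9 fell, and 4 of those that rose and 3 of those that fell changed at least 2-fold.

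**Figure D1:**
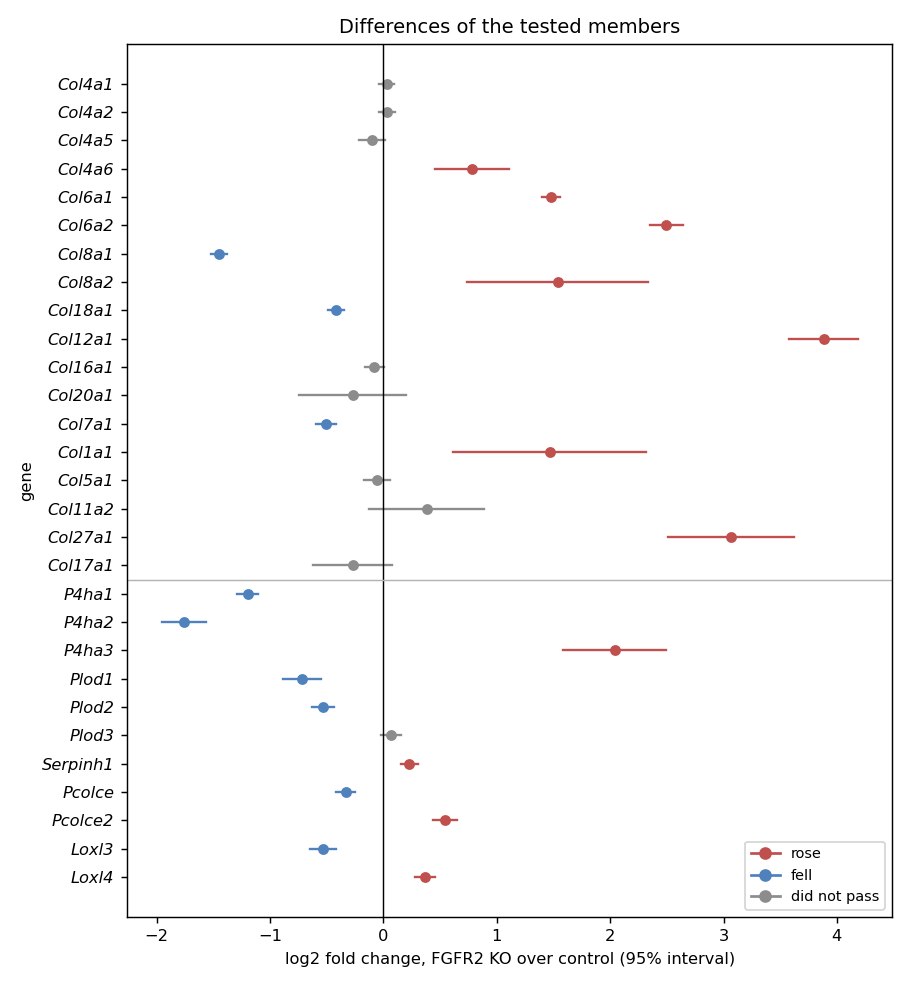
Log2 fold change of each of the 29 tested members, FGFR2 KO over control (x axis), with its 95% interval as a bar, collagen chains above the line and processing genes below it. Col12a1, Col27a1, Col6a2 and P4ha3 lie to the right of 2, Col8a1, P4ha1 and P4ha2 lie to the left of -1, and Col4a1 and Col4a2 sit at 0.03.

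Summed over all 44 chains, the collagen level was 341, 332 and 334 CPM per kb in KO replicates 1 to 3 and 342, 346 and 353 CPM per kb in control replicates 1 to 3. The KO mean of 336 ± 4.69 lay just below the control mean of 347 ± 5.63 (SD, n = 3 each), and the groups did not overlap. Type VI made up 21.5%, 21.3% and 21.8% of this sum in KO replicates 1 to 3, against 7.25%, 6.90% and 7.02% in control replicates 1 to 3. The short-chain group, almost all of it Col8a1, made up 6.43%, 6.69% and 6.67% in the KO and 17.2%, 17.5% and 16.9% in the control libraries. The shares of these groups thus differed far more between than within the groups of libraries. Type IV held 42.3% ± 0.133 in the KO and 40.2% ± 0.264 in the control libraries, types XV and XVIII held 17.1% ± 0.407 in the KO and 22.1% ± 0.340 in the control libraries, and type VII held 3.33% ± 0.139 in the KO and 4.58% ± 0.195 in the control libraries (SD, n = 3 each). The 11 fibrillar genes together gave 2.78% ± 0.175 in the KO and 2.61% ± 0.175 in the control libraries, ranges that overlap. Shares add up to a fixed total, so they cannot move independently, and they are given as a description without a test.

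**Figure D2:**
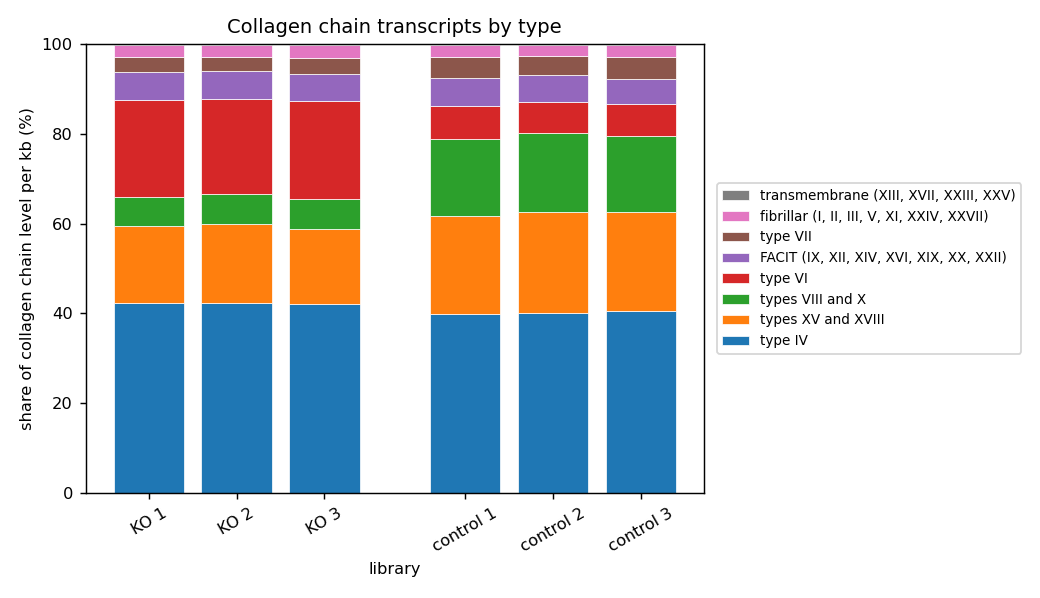
Share of the summed collagen chain level per kb (y axis, in percent) taken by each collagen group in the 3 KO libraries (left) and the 3 control libraries (right). Type VI takes 21.3% to 21.8% of each KO bar and 6.90% to 7.25% of each control bar, and types VIII and X show the opposite pattern.

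Ordered by level per kb, Col4a1 (76.4 CPM per kb) stood highest in the KO libraries, followed by Col6a1 (64.1), Col18a1 (57.4), Col4a2 (56.2) and Col8a1 (21.8). In the control libraries the order was Col18a1 (76.9 CPM per kb), Col4a1 (74.9), Col8a1 (59.7), Col4a2 (55.1) and Col6a1 (23.1). The libraries of neighbours in this order did not overlap, except for Col18a1 and Col4a2 in the KO and Col18a1 and Col4a1 in the control. The spread among libraries leaves out any error in the annotated exon length of a gene, which is the same in every library. Col6a1 was thus the second in the KO order and the fifth in the control order, and Col8a1 was the fifth in the KO order and the third in the control order. Below them came Col16a1, at 18.7 CPM per kb in the KO and 19.8 in the control libraries, and Col7a1, at 11.2 CPM per kb in the KO and 15.9 in the control libraries. Next came Col4a5 (8.45 CPM per kb in the KO and 9.06 in the control libraries) and Col5a1 (8.17 in the KO and 8.50 in the control libraries), whose libraries overlapped in both groups. Col6a2, at 8.18 CPM per kb, overlapped both in the KO libraries, and it lay below both in the control order, at 1.44 CPM per kb.

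Collagen VI is built from an alpha1 chain, an alpha2 chain and a longer chain, alpha3 in most tissues. Col6a1 (chromosome 10, 76708792 to 76726168, minus strand, mm10) had 284, 276 and 282 CPM in KO replicates 1 to 3, against 103, 97.6 and 103 CPM in control replicates 1 to 3. Every KO library lay above every control library, by 2.78-fold on average (log2 fold change 1.48, SE 0.040, edgeR adjusted p = 1.18e-27). Its neighbour Col6a2 (chromosome 10, 76595762 to 76623630, minus strand) had 69.9, 64.9 and 69.5 CPM in the KO and 11.1, 13.3 and 11.6 CPM in the control libraries. This was a 5.64-fold rise (log2 fold change 2.50, SE 0.073, edgeR adjusted p = 1.30e-26), and the groups again stood well apart.

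Per kb, Col6a2 reached 12.9%, 12.4% and 13.0% of the Col6a1 level in KO replicates 1 to 3, against 5.68%, 7.19% and 5.92% in control replicates 1 to 3. The alpha2 to alpha1 ratio was therefore higher in every KO library, by 1.03 on the log2 scale (exact two-sided permutation p = 0.1, the smallest that 3 against 3 libraries allow, and 0.114 adjusted over 8 ratios). The pair was chosen after its values were seen, so this p-value lends the difference no support. Transcripts of the partner chains were nearly absent. Col6a3 had 14 counts over the KO and 2 over the control libraries, and Col6a5 had 7 over the KO and 2 over the control libraries. Col6a4 and Col6a6 had no count, which allows up to 0.0513 CPM over the 3 KO and 0.0554 CPM over the 3 control libraries, by a limit of 3 counts for a count of 0 that covers counting error only.

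Type VIII moved the other way in its abundant chain. Col8a1 (chromosome 16, 57624258 to 57754737, minus strand), a chain known from vessel walls and from the basement membrane of the corneal endothelium, had 168, 171 and 173 CPM in KO replicates 1 to 3, against 460, 474 and 468 CPM in control replicates 1 to 3. All KO libraries lay below all control libraries, and Col8a1 had the smallest adjusted p of the members (log2 fold change -1.45, SE 0.036, edgeR adjusted p = 1.04e-28). Its sister chain Col8a2 rose at a level near the limit of the test, with 2.03, 1.58 and 0.938 CPM in the KO and 0.491, 0.640 and 0.387 CPM in the control libraries (a log2 difference of 1.54, with SE 0.39 and edgeR adjusted p = 0.00117). Col8a2 reached the filter's level in all KO libraries but not in all control libraries, so its entry into the test leaned on the KO. Col10a1, the short-chain collagen of growth plate cartilage, had 1 count in all.

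The major basement membrane chains were among the most abundant of the collagen transcripts and did not pass the test. Col4a1 had 582, 561 and 567 CPM in KO replicates 1 to 3 and 547, 552 and 577 CPM in control replicates 1 to 3, and Col4a2 had 375, 375 and 367 CPM in the KO and 358, 368 and 368 CPM in the control libraries. The groups overlapped for both chains, whose log2 fold changes of 0.03 and 0.03 had 95% intervals of -0.04 to 0.10 each (edgeR adjusted p = 0.487 and 0.495). Their ratio also stayed within the spread, since Col4a2 reached 73.7% ± 1.45 of the Col4a1 level per kb in the KO and 73.7% ± 1.65 in the control libraries (exact two-sided permutation p = 1, n = 3 each).

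The genes of Col4a1 and Col4a2 are transcribed away from each other out of a common region. It is shown here because the ratio of the pair stayed within the spread between replicates. Whether the common region bears on that ratio was not tested. In RefSeq (GRCm38.p6) the first bases of the 2 genes lie 21 bp apart, at 11312826 for Col4a1 (minus strand) and 11312805 for Col4a2 (plus strand) on chromosome 8. The sequence is the plus strand around the Col4a2 start, and the capitals mark the 78 bases shared with the equivalent window of Col4a1.
Col4a2 (chr8:11312555-11312854): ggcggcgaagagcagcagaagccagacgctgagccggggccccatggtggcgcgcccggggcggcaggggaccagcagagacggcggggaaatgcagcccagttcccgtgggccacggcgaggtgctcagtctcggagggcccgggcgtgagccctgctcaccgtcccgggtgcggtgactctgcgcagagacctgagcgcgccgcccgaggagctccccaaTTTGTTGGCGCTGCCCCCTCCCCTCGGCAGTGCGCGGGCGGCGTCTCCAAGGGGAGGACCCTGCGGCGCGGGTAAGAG
The annotated exons of the pair overlap by 22 bp on opposite strands, out of 7464 bp for Col4a1 and 6619 bp for Col4a2.

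The remaining type IV chains, Col4a5 and Col4a6, are also a head-to-head pair, on the X chromosome, and are typical of specialised basement membranes. Col4a5 (56.8 ± 3.25 CPM in the KO and 60.8 ± 2.53 CPM in the control libraries, SD, n = 3 each) did not pass the test, with a log2 fold change of -0.10 (95% interval -0.21 to 0.01, edgeR adjusted p = 0.132). Col4a6 rose, with 6.42, 6.84 and 7.85 CPM in KO replicates 1 to 3 and 4.47, 3.64 and 4.19 CPM in control replicates 1 to 3 (log2 fold change 0.78, SE 0.16, edgeR adjusted p = 8.83e-05). The groups did not overlap, but the rise did not pass against a minimum fold change of 1.5. The Col4a6 level per kb came to 10.5% ± 1.32 of that of Col4a5 in the KO and 5.69% ± 0.650 in the control libraries, without overlap. Col4a3 and Col4a4, the partners of Col4a5 in the kidney filter, had no count.

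**Figure D3:**
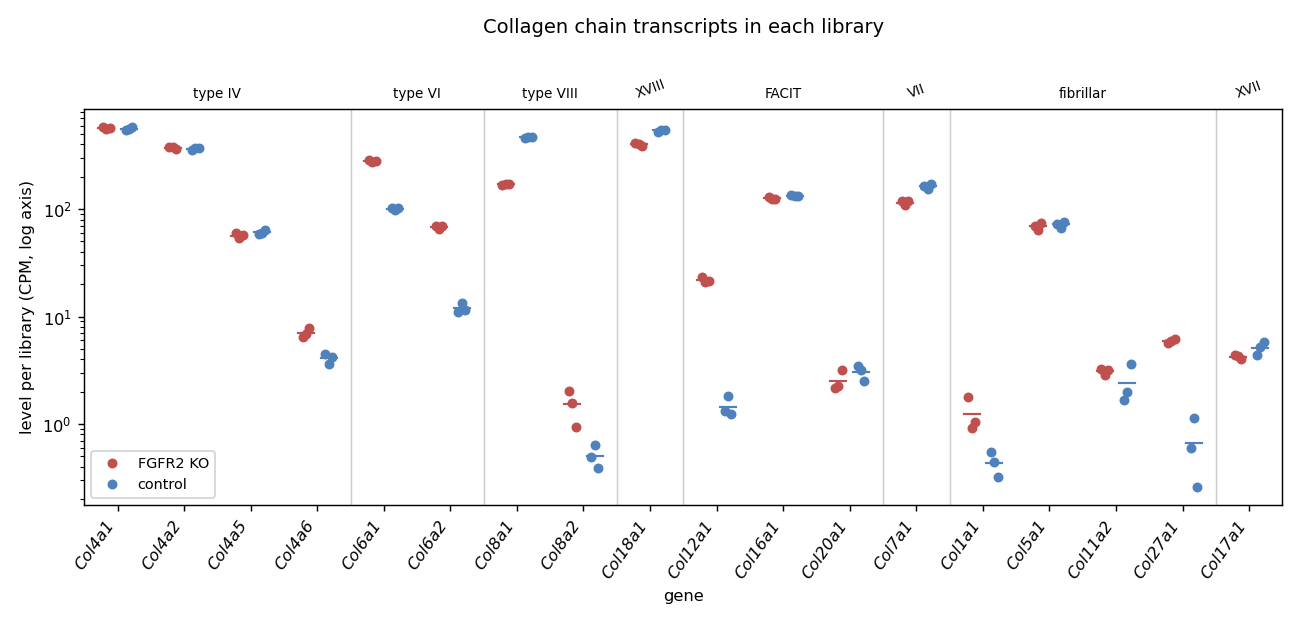
Level of the 18 tested collagen chains in each library (CPM, log axis), grouped by collagen type, with KO libraries left of control libraries and a short line at each mean. Col6a1, Col6a2, Col12a1 and Col27a1 stand higher in all KO libraries, Col8a1, Col18a1 and Col7a1 lower, and the points of Col4a1 and Col4a2 overlap between groups.

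Of the other basement membrane collagens, Col18a1 (chromosome 10, 77052178 to 77166548, minus strand) had 412, 407 and 391 CPM in KO replicates 1 to 3 and 524, 546 and 549 CPM in control replicates 1 to 3. It fell in every KO library relative to every control library, to 0.747 of the control level (log2 fold change -0.42, SE 0.035, edgeR adjusted p = 5.40e-13). Col7a1 (chromosome 9, 108953586 to 108984875, plus strand), the chain of the anchoring fibrils of skin, had 118, 108 and 118 CPM in the KO and 165, 155 and 171 CPM in the control libraries. Its groups were also apart, at 0.704 of the control level (log2 fold change -0.51, SE 0.045, edgeR adjusted p = 4.00e-12). Neither fall passed when tested against a minimum fold change of 1.5. The hemidesmosomal transmembrane chain Col17a1 stood at 4.24 ± 0.174 CPM in the KO and 5.13 ± 0.669 CPM in the control libraries (SD, n = 3 each) and did not pass (log2 fold change -0.27, 95% interval -0.62 to 0.08). Col15a1, the relative of type XVIII, had 36 counts in all.

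Among FACIT collagens the fibril-surface chain Col12a1 (chromosome 9, 79598991 to 79718831, minus strand), which is found in tendon, ligament and tumour stroma, had the greatest rise of the tested members. It had 23.3, 20.8 and 21.5 CPM in KO replicates 1 to 3, against 1.31, 1.82 and 1.23 CPM in control replicates 1 to 3. The KO libraries were 14.7-fold higher (log2 fold change 3.88, SE 0.15, edgeR adjusted p = 5.64e-23). Because the transcript is long, with 15228 bp of annotated exon, this came to only 1.43 CPM per kb in the KO and 0.0953 CPM per kb in the control libraries, below the abundant chains in both groups. Col16a1, the most abundant FACIT, had 126 ± 2.85 CPM in the KO and 134 ± 2.53 CPM in the control libraries (SD, n = 3 each) and did not pass (log2 fold change -0.08, 95% interval -0.17 to 0.00, edgeR adjusted p = 0.102), although with upper quartile scaling it fell (edgeR adjusted p = 0.0361). Col20a1 stood at 2.53 ± 0.589 CPM in the KO and 3.05 ± 0.476 CPM in the control libraries and did not pass either (log2 fold change -0.27, 95% interval -0.74 to 0.20). Col14a1 had 2 counts over the KO and 14 over the control libraries, Col9a3 had 62 in all, Col9a2 and Col22a1 had 2 and 1, and Col9a1 and Col19a1 had none.

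Apart from Col5a1, which is described below, transcripts of the classical fibrillar collagens were scarce in these cells, which were grown in collagen I supplied from outside. Col3a1, Col5a2 and Col11a1 had no count, Col1a2 had 3 counts over the KO and 1 over the control libraries, and Col24a1 had 2 in all. Col1a1 had 33, 18 and 21 counts in KO replicates 1 to 3 and 10, 9 and 5 in control replicates 1 to 3, that is 1.24 ± 0.458 CPM in the KO and 0.437 ± 0.111 CPM in the control libraries (SD, n = 3 each). It rose (log2 fold change 1.47, SE 0.42, edgeR adjusted p = 0.00338), but without KO replicate 1, the highest library, the adjusted p was 0.0769. Col1a1 also reached the filter's level in all KO libraries but not in all control libraries, so its entry into the test leaned on the KO. Col2a1 had 34 counts over the KO and 16 over the control libraries and was not tested.

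Col5a1, a chain that joins collagen I fibrils and sets their width, was the fibrillar gene with the highest level. It had 69.3, 64.6 and 74.2 CPM in KO replicates 1 to 3 and 73.4, 66.8 and 76.4 CPM in control replicates 1 to 3. The groups overlapped and the test was not passed (log2 fold change -0.05, 95% interval -0.17 to 0.06, edgeR adjusted p = 0.428). Its partner chain Col5a2 was without counts, and Col5a3 had 6 counts over the KO and 28 over the control libraries. The filter removed Col5a3, and with no filter it fell (log2 fold change -2.26, edgeR adjusted p = 0.0226).

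Col27a1 (chromosome 4, 63214004 to 63334991, plus strand), a fibrillar collagen of cartilage, had 5.67, 5.87 and 6.12 CPM in KO replicates 1 to 3 against 0.600, 1.13 and 0.258 CPM in control replicates 1 to 3. The rise was 8.38-fold (log2 fold change 3.07, SE 0.27, edgeR adjusted p = 4.39e-12), with 345 counts over the KO and 38 over the control libraries. Col27a1 reached the filter's level in all KO libraries but not in all control libraries, so its entry into the test leaned on the group where it was high. Without control replicate 2, the highest control library, the log2 fold change was 3.72. Col11a2 had 3.26, 2.86 and 3.16 CPM in the KO and 1.69, 1.97 and 3.61 CPM in the control libraries, so the groups overlapped through control replicate 3. It did not pass (log2 fold change 0.38, 95% interval -0.12 to 0.89), and without that library it had a log2 fold change of 0.75 (edgeR adjusted p = 0.0205). Col13a1, Col25a1 and Col26a1 had no count, and Col23a1 and Col28a1 had 5 and 1.

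Prolyl 4-hydroxylase turns prolines of the collagen repeat into 4-hydroxyproline, which keeps the collagen helix stable at body temperature. Its alpha subunits, which carry the active site, are encoded by P4ha1, P4ha2 and P4ha3, and P4ha1 and P4ha2 are known targets of the hypoxia-inducible factors (HIF). P4ha1 (chromosome 10, 59323296 to 59373304, plus strand), the main subunit here, had 89.0, 83.1 and 78.4 CPM in KO replicates 1 to 3, against 190, 195 and 189 CPM in control replicates 1 to 3. It fell in all KO libraries to 0.436 of the control level (log2 fold change -1.20, SE 0.045, edgeR adjusted p = 3.12e-23).

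P4ha2 (chromosome 11, 54100095 to 54131665, plus strand) fell further, with 7.65, 8.33 and 7.70 CPM in the KO and 27.3, 25.5 and 27.6 CPM in the control libraries (a log2 difference of -1.76, with SE 0.096 and edgeR adjusted p = 4.20e-18). P4ha3 (chromosome 7, 100285520 to 100319699, plus strand) went the other way, with 6.26, 4.90 and 6.37 CPM in the KO and 1.42, 1.77 and 0.968 CPM in the control libraries (a log2 difference of 2.04, with SE 0.22 and edgeR adjusted p = 7.81e-10). None of the 3 genes had overlapping groups. Per kb, P4ha3 reached 9.21% ± 1.46 of the P4ha1 level in the KO and 0.947% ± 0.261 in the control libraries, and P4ha2 reached 6.25% ± 0.510 in the KO and 9.23% ± 0.538 in the control libraries (SD, n = 3 each). P4ha3 therefore stood above P4ha2 per kb in the KO libraries, at 1.86 and 1.27 CPM per kb. In the control libraries P4ha3 stood below P4ha2, at 0.442 and 4.29 CPM per kb. The order in the KO rests on the exon lengths used, 3135 bp for P4ha3 and 6239 bp for P4ha2. Before division by length, the KO means were 5.84 CPM for P4ha3 and 7.89 CPM for P4ha2. The beta subunit P4hb, shared by all of them, rose slightly, with 538 ± 18.2 CPM in the KO and 468 ± 12.7 CPM in the control libraries (log2 fold change 0.20, edgeR adjusted p = 6.22e-06).

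The promoters of the 3 alpha subunit genes are given because the isoenzymes differed in direction. Each is placed on the gene start that RefSeq gives, which for P4ha2 lies inside the longer gene model used for its position, and runs from 250 bases before to 50 after that start (GRCm38.p6, plus strand), and the capitals mark the letters ACGTG and GCGTG on either strand (CACGT and CACGC as read here), the core that HIF is known to bind. ACGTG overlaps its own reverse strand where CACGTG occurs.
P4ha1 (chr10:59323046-59323345): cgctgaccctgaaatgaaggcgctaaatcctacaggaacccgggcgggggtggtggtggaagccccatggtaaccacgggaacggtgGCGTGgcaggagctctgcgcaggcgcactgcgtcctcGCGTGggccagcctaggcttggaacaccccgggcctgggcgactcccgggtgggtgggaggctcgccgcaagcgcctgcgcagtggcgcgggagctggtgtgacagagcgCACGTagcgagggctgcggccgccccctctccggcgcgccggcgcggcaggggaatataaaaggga
P4ha2 (chr11:54100674-54100973): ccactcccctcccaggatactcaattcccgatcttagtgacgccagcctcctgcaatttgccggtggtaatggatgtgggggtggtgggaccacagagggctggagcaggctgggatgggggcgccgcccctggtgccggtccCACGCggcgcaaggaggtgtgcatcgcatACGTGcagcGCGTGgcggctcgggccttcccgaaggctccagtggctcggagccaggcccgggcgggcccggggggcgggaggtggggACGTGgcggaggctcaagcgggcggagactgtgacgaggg
P4ha3 (chr7:100285270-100285569): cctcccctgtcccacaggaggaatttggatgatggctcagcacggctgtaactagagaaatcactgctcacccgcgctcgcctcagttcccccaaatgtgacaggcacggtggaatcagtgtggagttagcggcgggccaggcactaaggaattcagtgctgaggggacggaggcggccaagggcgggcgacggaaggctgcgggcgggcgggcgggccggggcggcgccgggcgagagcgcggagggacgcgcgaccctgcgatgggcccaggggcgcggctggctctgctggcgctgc
The P4ha1 window held 1 ACGTG and 2 GCGTG, the P4ha2 window 2 ACGTG and 2 GCGTG, and the P4ha3 window 0 of either. Of 32544 promoters of this length in the table, 19.7% held ACGTG, 32.6% held GCGTG and 44.0% held at least 1 of the 2, so these letters are common. Among the 25 tested members with a window, either motif was found for 4 of 7 that fell, 3 of 9 that rose and 6 of 9 that did not pass. Plod3, with 1 ACGTG and 3 GCGTG, did not pass the test, and Serpinh1, with 1 ACGTG, rose. A match is a description of the sequence and not evidence of binding.

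Lysyl hydroxylases make the hydroxylysines on which sugars are attached and crosslinks form. Plod2, which acts on the telopeptides and is another known HIF target, had 66.1, 67.7 and 64.0 CPM in KO replicates 1 to 3 and 91.5, 96.5 and 98.0 CPM in control replicates 1 to 3 (log2 fold change -0.53, SE 0.048, edgeR adjusted p = 8.42e-12). Plod1, which acts on the helix, had 16.2, 15.6 and 16.3 CPM in the KO and 27.3, 25.7 and 26.0 CPM in the control libraries (a log2 difference of -0.72, with SE 0.083 and edgeR adjusted p = 2.52e-09). Both fell without overlap of the groups. Plod3, which also transfers glucose onto hydroxylysine that carries galactose and was the most abundant of the family, did not pass, with 128 ± 5.54 CPM in the KO and 123 ± 3.54 CPM in the control libraries (log2 fold change 0.07, 95% interval -0.02 to 0.16, edgeR adjusted p = 0.194). The Plod2 level per kb was 43.1% ± 1.82 of that of Plod3 in the KO and 65.1% ± 1.76 in the control libraries. Plod2 and Plod3 share 346 and 529 bp of exon with genes on the opposite strand, so a part of their counts is uncertain, since the strand setting of the counting is not given.

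**Figure D4:**
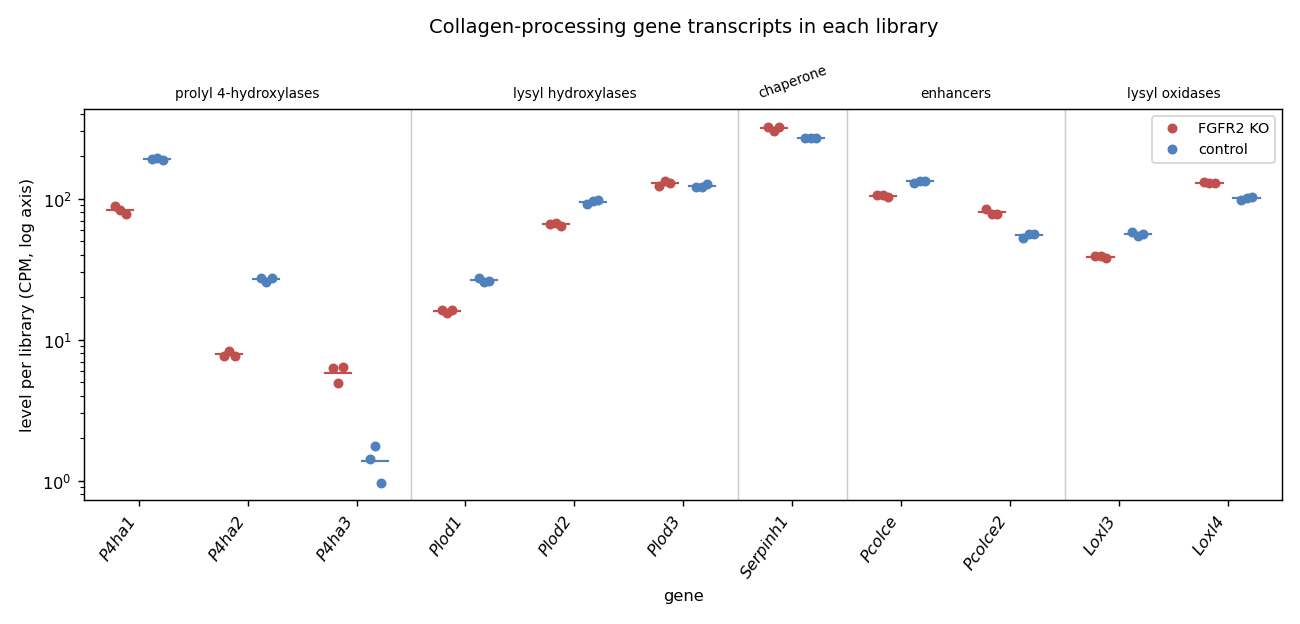
Level of the 11 tested processing genes in each library (CPM, log axis), by enzyme family, with KO libraries left of control libraries and a short line at each mean. P4ha1, P4ha2, Plod1, Plod2, Pcolce and Loxl3 are lower in all KO libraries, and P4ha3, Serpinh1, Pcolce2 and Loxl4 are higher.

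The collagen chaperone Serpinh1 was the member with the highest level per kb, at 129 CPM per kb in the KO and 111 CPM per kb in the control libraries. It had 323, 302 and 324 CPM in KO replicates 1 to 3 and 270, 271 and 269 CPM in control replicates 1 to 3, a small rise (log2 fold change 0.23, SE 0.037, edgeR adjusted p = 2.22e-06). The procollagen C-proteinase enhancers split. Pcolce had 106, 106 and 103 CPM in the KO and 130, 133 and 134 CPM in the control libraries and fell (log2 fold change -0.33, SE 0.042, edgeR adjusted p = 2.02e-08), though 112 bp of its exons are shared with Fbxo24 on the same strand. Pcolce2 had 84.4, 77.4 and 78.5 CPM in the KO and 52.4, 56.2 and 56.1 CPM in the control libraries and rose (log2 fold change 0.54, SE 0.053, edgeR adjusted p = 4.03e-11). The Pcolce2 level per kb was 63.0% ± 2.63 of that of Pcolce in the KO and 34.2% ± 0.796 in the control libraries (SD, n = 3 each).

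Lysyl oxidases oxidise lysines so that collagen and elastin can crosslink. Lox, the founding member and a known HIF target, had 3 counts over the KO and 0 over the control libraries, too few to compare the groups. Loxl2 had 6 counts over the KO and 2 over the control libraries, Loxl1 had 16 over the KO and 25 over the control libraries, and none of these was tested. Loxl4, with 131, 129 and 128 CPM in KO replicates 1 to 3 and 98.4, 101 and 102 CPM in control replicates 1 to 3, rose (log2 fold change 0.37, SE 0.043, edgeR adjusted p = 3.42e-09). Loxl3, with 39.1, 39.3 and 37.9 CPM in the KO and 57.6, 54.5 and 56.1 CPM in the control libraries, fell (log2 fold change -0.53, SE 0.058, edgeR adjusted p = 5.99e-10). Neither pair of groups overlapped. Loxl3 shares 535 bp of exon with Htra2 on the opposite strand. Loxl4 stood at 3.65 times the Loxl3 level per kb in the KO and at 1.96 times in the control libraries. Apart from P4ha1, P4ha2 and P4ha3, no processing gene passed the test against a minimum fold change of 1.5.

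Of the 8 ratios between related genes, 7 were apart between all KO and all control libraries, and the ratio of Col4a2 to Col4a1 was not. Each of the 7 had an exact two-sided permutation p of 0.1, the smallest possible here (0.114 adjusted over the 8 ratios), so none can pass a threshold of 0.05 at this number of libraries. The 8 pairs were also chosen after their values were seen. These p-values therefore lend no support to a difference, and the ratios are a description.

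**Figure D5:**
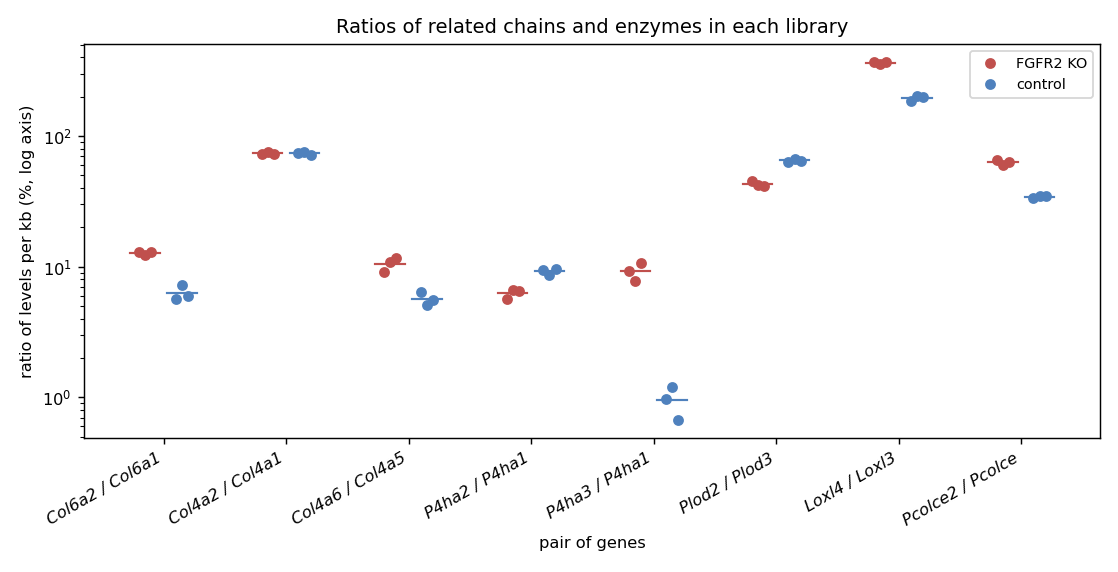
Ratio of the levels per kb of 8 pairs of related genes in each library (percent, log axis), with KO libraries left of control libraries and a short line at each mean. The points of Col4a2 over Col4a1 overlap around 73.7%, while those of Col6a2 over Col6a1 stand near 12.7% in the KO and 6.27% in the control libraries.

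The proteins that work with the collagens were examined in 5 companion lists. The lists were drawn up with earlier results of these data known, so the counts of their members are a description and lend no independent support. Of 19 tested partners in collagen folding and export 12 rose and 2 fell, where 27.1% of all tested genes rose and 27.5% fell. The median log2 fold change of these partners was 0.20. Pdia3, a disulfide isomerase, had 730 ± 10.3 CPM in the KO and 565 ± 7.34 CPM in the control libraries. Colgalt1, which adds galactose to hydroxylysine, had 142 ± 5.73 CPM in the KO and 107 ± 5.76 CPM in the control libraries, and P3h2, a prolyl 3-hydroxylase, had 6.22 ± 0.303 CPM in the KO and 2.74 ± 0.455 CPM in the control libraries (SD, n = 3 each). Ppib (cyclophilin B), a proline isomerase, fell to 316 ± 6.92 CPM in the KO, against 369 ± 7.55 CPM in the control libraries. Of these genes, P3h2, Ppib and Colgalt1 share 1055, 825 and 495 bp of exon with genes on the opposite strand, so a part of their counts is uncertain too. The chaperone Fkbp10 had 3 counts in all.

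All 3 tested proteinases of procollagen trimming fell, with a median log2 fold change of -0.31, where 27.5% of all tested genes fell. Adamts14, which removes the N-terminal propeptide, had 19.7 ± 0.987 CPM in the KO and 54.7 ± 2.44 CPM in the control libraries (log2 fold change -1.47, edgeR adjusted p = 2.06e-20). Bmp1, the C-proteinase that also activates lysyl oxidases, had 405 ± 10.2 CPM in the KO and 494 ± 11.1 CPM in the control libraries (log2 fold change -0.29, edgeR adjusted p = 5.93e-09), and Furin had a log2 fold change of -0.31 (edgeR adjusted p = 4.97e-08). Adamts2 had 3 counts and Adamts3 none.

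Of 8 tested collagen receptors 3 rose and 1 fell, where 27.1% of all tested genes rose and 27.5% fell. The median log2 fold change of the receptors was 0.19. Adgrg1 (GPR56), a receptor that binds collagen III, rose (log2 fold change 1.54, edgeR adjusted p = 3.06e-18). The integrin chain Itgb1 rose by 0.30 and the collagen receptor kinase Ddr1 by 0.36 on the log2 scale, while Itga2, which pairs with Itgb1 to bind collagen I, fell by 0.28 (edgeR adjusted p = 3.40e-10, 9.56e-09 and 6.32e-08).

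Of 9 tested fibril-associated matrix proteins 7 rose and 0 fell, with a median log2 fold change of 0.39. Postn (periostin) rose by 4.41 on the log2 scale (edgeR adjusted p = 8.91e-26). Sparc, a collagen-binding matrix protein, had 231 ± 9.25 CPM in the KO and 115 ± 6.44 CPM in the control libraries, and Thbs1 (thrombospondin 1) had 1199 ± 71.2 CPM in the KO and 516 ± 12.9 CPM in the control libraries (SD, n = 3 each). Matn2 rose by 0.39 on the log2 scale (edgeR adjusted p = 6.60e-06). Of 12 tested proteases and inhibitors of collagen breakdown, 4 rose and 8 fell, with a median log2 fold change of -0.45 over proteases and inhibitors together. Mmp3, Mmp9 and Mmp13 fell by 1.48, 1.42 and 2.28 on the log2 scale and the inhibitor Timp2 rose by 0.86 (edgeR adjusted p = 8.59e-28, 1.08e-27, 8.64e-28 and 3.14e-23). Not all proteases fell, since the membrane-bound Mmp14 and Mmp15 rose by 0.78 and 2.25 on the log2 scale (edgeR adjusted p = 1.77e-20 and 1.12e-17). Nor did all inhibitors rise. Timp1 had a log2 fold change of 0.53 and Reck of -0.54 (edgeR adjusted p = 1.36e-08 and 0.00349). These lists were drawn up with earlier results of these data known, and 27.1% of all tested genes rose and 27.5% fell.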

How the data were processed

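Per the labels, poly(A) libraries were made with a stranded kit. The authors deposited raw read counts, whole numbers for each gene symbol in 6 libraries, without normalization. FastQC 0.11.9, STAR 2.7.9a, featureCounts and R 4.1.1 are listed in the submitters' processing notes, with the builds hg38 and mm10 and no role for either. The sources used here do not give the annotation release, the strand setting or how reads over several genes were counted. All 58 members have a gene model in GENCODE M21 (mm10), from which positions and the union of exons were taken. A union is longer than most transcripts, so levels per kb are approximate.

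KO and control were compared in edgeR 4.0.16 (R 4.3.3) by filterByExpr (minimum count 10, total 15), TMM and the quasi-likelihood F-test on group alone, with Benjamini-Hochberg adjustment over 12158 genes and a threshold of 0.05. Fold changes are on the log2 scale, KO divided by control, and used a prior count of 0.125. Each SE was obtained by dividing the log2 fold change by the root of its F statistic. Ratios of related genes, chosen after their values were seen, were tested by exact permutation. DESeq2 1.42.0, limma-voom (limma 3.58.1), other scalings and filters, a minimum fold change, the replicate number as a block and leaving out each library were the alternatives.

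The members and lists were chosen with earlier results of these data known. Every tested member is named. Members that changed and had a mean of at least 10 CPM or a log2 fold change of at least 1 in size are given in every library, and the other members given so were added after their values were seen. Companion lists give up to 4 members with the smallest adjusted p, and P4hb, Fkbp10, Adamts2, Adamts3, Mmp14, Mmp15, Timp1, Reck and the individual markers were picked with their values in view. Promoters are from RefSeq (GRCm38.p6), which held 44 of the 58 members. The labels number the replicates without saying that they are separate cultures, so a p-value here reflects differences among libraries that could be technical repeats. Replicates of a group differed by more than counting noise (chi-square per degree of freedom 3.85 to 4.87 for KO and 2.29 to 2.69 for control libraries), and none was merged.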

Additional observations from a re-analysis of the deposited data

How the results depend on the processing

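The direction of each of the 20 members called was kept under every alternative tried that could test it. Of the 29 tested members, none changed its call with DESeq2, limma-voom or no filter on low counts. With a filter of 5 CPM, 22 members were tested and 7 rose, since fewer were tested. Against a minimum fold change of 1.5, 907 of all tested genes passed, against 6639, and 6 members rose and 3 fell, against 11 and 9. The 11 that then did not pass were Col1a1, Col4a6, Col7a1, Col18a1, Plod1, Plod2, Serpinh1, Pcolce, Pcolce2, Loxl3 and Loxl4. With each library left out in turn, 5922 to 6276 genes changed, 10 to 12 members rose and 9 fell. Without KO replicate 1 the call of Col1a1 was lost, and without control replicate 3 Col11a2 rose. Upper quartile scaling moved the median of all genes by -0.02 on the log2 scale and called Col16a1 as a fall. The replicate numbers are not said to mark shared cultures, and same-numbered libraries did not deviate together (correlations -0.029, -0.0032 and -0.064). With the replicate number as a block 6443 genes changed, 11 members rose and 9 fell. The 8 ratios moved by less than the spread between replicates without any library. Depth limits the 17 members with 1 to 62 counts, of which Col5a3 alone was called when no filter was used.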
